A study of Rattus norvegicus with 138 samples.

Results

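Serum microRNAs (miRNAs) of rats carrying depleted uranium (DU) pellets were compared with those of rats carrying lead (Pb) pellets, at 1, 3, 6 and 12 mo after implantation and averaged over the 4 months. The 32 libraries compared, 16 from DU rats and 16 from Pb rats with 4 per metal and month, are all those labelled with either metal among the 138 libraries of the study. Every group consisted of male Sprague-Dawley rats that were 3 months old when the pellets were placed in both gastrocnemius muscles, 2 pellets per limb and 4 per rat. The rats carried no label of any genetic change or further agent, so the metal of the pellets and the month of bleeding are the differences that the labels give. Age at bleeding rises with the month. The design text gives 8 rats per metal, and the labels do not say which rats the 4 libraries of a group came from, or whether the same rats were bled at several months. Samples were therefore treated as independent, and each p rests on the spread between samples. In the main tests of single miRNAs that spread was estimated over the libraries of all metals, not over DU and Pb alone. Pb rats are themselves exposed to a toxic metal, so a difference here is between 2 exposures and has no unexposed side.

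DU is the dense metal left when the fissile isotope has been drawn off from natural uranium, and it is chemically toxic as well as weakly radioactive. Lead is a heavy metal known for harm to the nervous system, the blood-forming tissue and the kidney. Mature miRNAs are short RNAs that silence messenger RNAs carrying a match to their seed, bases 2 to 8 of the miRNA. They reach serum in vesicles and protein complexes shed by blood cells, endothelium, liver and other organs. In serum, a change in the number of cells that release a miRNA and a change in the amount released per cell cannot be told apart.

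The 13 miRNAs that were called in at least 1 of the 6 comparisons are shown here because the results turn on them. The sequences are RefSeq mature miRNAs of the rat assembly GRCr8, written 5′ to 3′ with the seed in capitals; 13 of these 13 miRNAs and 40 of the 42 miRNAs named by rule had an entry. The guide and partner strands of the miR-191a hairpin are both among them, and miR-322-3p and miR-503-5p come from 1 cluster on the X chromosome.
miR-322-3p: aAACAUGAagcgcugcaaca
miR-503-5p: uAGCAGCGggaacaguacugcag
miR-15b-5p: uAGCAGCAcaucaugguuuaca
miR-126a-5p: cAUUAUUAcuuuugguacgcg
miR-191a-5p: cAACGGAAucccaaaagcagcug
miR-191a-3p: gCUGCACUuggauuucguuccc
miR-29b-3p: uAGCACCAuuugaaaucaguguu
miR-96-5p: uUUGGCACuagcacauuuuugcu
miR-185-5p: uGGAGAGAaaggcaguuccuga
miR-330-3p: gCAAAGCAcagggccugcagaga
miR-872-3p: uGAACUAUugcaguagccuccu
miR-676: cCGUCCUGagcuugucgagcua
miR-6216: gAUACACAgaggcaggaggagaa
The 13 called miRNAs hold 13 different seeds. The seeds of miR-503-5p and miR-15b-5p are alike up to their last base, and those 2 miRNAs were called in opposite directions at 6 mo. The 9 members of the let-7 family, none of which was called, share the seed GAGGUAG, as in these 2 members.
let-7f-5p: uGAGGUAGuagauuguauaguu
let-7g-5p: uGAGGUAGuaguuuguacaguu

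Library totals ran from 518 to 6406599 counts in DU and from 70454 to 3743726 counts in Pb. A single library of the 32, DU at 3 mo replicate 4, lay under 20000 counts, with 518 counts over 22 miRNAs; the next smallest DU library held 159861 counts. At 6 mo the 4 DU libraries detected 179, 155, 86 and 77 miRNAs and the 4 Pb libraries 88, 70, 96 and 89, so that DU replicates 1 and 2 stood above the other 6. The DU libraries of that month held more counts, by 0.742 on the log10 scale (two-sided exact permutation test, p = 0.05714, where 0.02857 is the smallest possible), and 38.5 more miRNAs were detected on average (p = 0.3143 by the same exact permutation test). At 3 mo the log10 totals differed by -0.15 with all libraries (exact permutation p = 1) and by 0.70 without the near-empty one (exact permutation p = 0.05714). Across the 32 libraries miR-191a-5p, abundant in blood cells, took on average 19.9% of the counts, miR-10a-5p of the Hox clusters 11.8% and the hepatocyte miRNA miR-122-5p 7.81%.

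**Figure D1:**
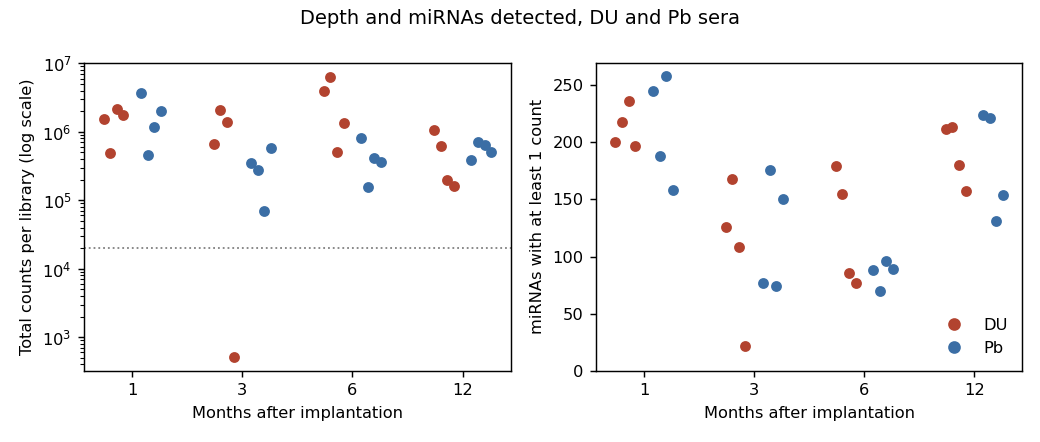
Total counts per library on a log scale (left) and miRNAs with at least 1 count (right), against months after implantation, for DU (red) and Pb (blue); each point is 1 library and the dotted line marks 20000 counts. The DU library at 3 mo with 518 counts lies alone below the line, and at 6 mo 2 DU libraries with 179 and 155 miRNAs lie above the rest.

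Called means an adjusted p under 0.05 in edgeR's quasi-likelihood test (Benjamini-Hochberg over all miRNAs tested in a comparison). At 1 mo 0 of 270 miRNAs tested were called (0%), while 16 had an unadjusted p under 0.05 (5.93%) and DESeq2 called 6. At 3 mo 1 of 167 was called (0.599%) and it was higher in DU. At 6 mo 9 of 272 were called (3.31%), 8 higher in DU (2.94%) and 1 lower (0.368%). At 12 mo 0 of 224 were called (0%), while 16 had an unadjusted p under 0.05 (7.14%) and DESeq2 called 1. Averaged over months, 6 of 320 were called (1.88%), 5 higher in DU (1.56%) and 1 lower (0.312%). An unadjusted p under 0.05 with DU higher was found for 3.7% of the miRNAs tested at 1 mo, 4.19% at 3 mo, 12.5% at 6 mo, 4.46% at 12 mo and 9.06% in the average. In either direction it was found for 5.99% at 3 mo and 16.9% at 6 mo, and with DU lower for 1.8% and 4.41%. For 4 of 320 miRNAs (1.25%) the difference between DU and Pb itself changed with the month.

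Of the 138 libraries of the series, 6 held under 20000 counts, 1 of them DU and 0 of them Pb. Without all 6 near-empty libraries, the calls numbered 0 at 1 mo, 0 at 3 mo, 9 at 6 mo, 0 at 12 mo, 2 in the average and 2 in the change with month. The 6 mo calls were the same 9 miRNAs, since no library of that month was under 20000 counts. Of the 6 miRNAs called in the average, miR-322-3p and miR-503-5p kept their call. Leaving out the near-empty DU library alone did not take the average down to 2 calls.

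The clearest difference was in miR-322-3p, which was present in DU serum and missing from Pb serum at 6 mo. It is the lesser-known strand of the miR-322 hairpin, called miR-424 in humans, made from a cluster that in mouse myoblasts slows the cell cycle during muscle differentiation. At 6 mo the DU libraries held 2096, 2784, 0 and 2597 CPM of miR-322-3p (counts per 1000000, scaled with TMM factors), and the Pb libraries held 0, 0, 0 and 0. It was present in 3 of 4 DU and 0 of 4 Pb libraries, and the DU library without it kept the groups from separating fully. All deposited counts of miR-322-3p are multiples of 4, so the floor for the 4 Pb libraries together was set at 12 counts, in place of the 3 counts used for miRNAs without such a common factor. Against it the DU mean of 1869 ± 1279 CPM (SD, n = 4) was at least 415-fold higher, a bound that covers counting error only. The edgeR adjusted p was 1.3e-06, and it ran from 3.12e-17 to 9.26e-05 over the 15 alternatives in which miR-322-3p was tested. In the fit of the DU and Pb libraries alone it did not pass the low-count filter and was not tested.

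At the other months the metals overlapped in miR-322-3p, and it was not called. At 1 mo it stood at 2892, 5186, 3212 and 3495 CPM in DU, against 2760, 4285, 4989 and 2016 CPM in Pb. At 3 mo DU held 1968, 5213 and 1856 CPM and 0 in the near-empty library, against 0, 299, 0 and 1973 CPM in Pb. At 12 mo DU held 5510, 2175, 551 and 1825 CPM, against 5479, 3156, 4137 and 1304 CPM in Pb. The 2 groups overlapped at each of these months, with log2 differences of 0.07 ± 0.46 at 1 mo, 2.05 ± 2.19 at 3 mo and -0.48 ± 0.76 at 12 mo (± SE, adjusted p = 1, 0.99 and 0.931).

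The change of the miR-322-3p difference with month had an adjusted p of 0.00149, and 0.00117 without the near-empty libraries. Averaged over months the log2 difference was 3.92 ± 0.80 (SE, adjusted p = 0.00101), with counts in 14 of 16 DU and 10 of 16 Pb libraries. Fitted log2 values of a miRNA with a whole group at 0, here Pb at 6 mo, depend on the prior count of the model, and so do averages that include them. All 26 libraries of the other metals at 6 mo held miR-322-3p, with a median of 1535 CPM.

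miR-503-5p, from the same X-linked cluster and with a seed close to that of the cell cycle regulators of the miR-15 family, was called lower in DU at 6 mo and in the average. At 6 mo DU held 0, 0, 0 and 0 CPM, against 1055, 0, 0 and 0 CPM in Pb (adjusted p = 0.0266). The 6 mo call therefore rested on 1152 counts in Pb replicate 1, and no other DU or Pb library of that month held a count. All deposited counts of miR-503-5p are multiples of 4. The 6 mo call was lost in 4 of the 8 fits that left out 1 library and in 7 of 15 alternatives in all. Of the 26 libraries of other metals at 6 mo, 18 held miR-503-5p, with a median of 100 CPM. At 3 mo DU held 0 in all 4 libraries, against 0, 221, 0 and 0 CPM in Pb, again a single Pb library. At 1 mo all 8 libraries held miR-503-5p, at 480, 189, 239.5 and 244 CPM in DU and 506, 503, 402 and 316 CPM in Pb. At 12 mo 2 DU libraries (234 and 59.0 CPM) and 4 Pb libraries (46.8, 227, 57.2 and 39.9 CPM) held it.

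Over the year miR-503-5p was thus detected in 6 of 16 DU and 10 of 16 Pb libraries. The average difference was -4.95 ± 1.13 on the log2 scale (SE, adjusted p = 0.0043), and -5.18 without the near-empty libraries (adjusted p = 0.00472). The call was lost when Pb replicate 2 at 3 mo or Pb replicate 1 at 6 mo was left out, with an adjusted p of 1 in the first case. Its change with month had an adjusted p of 0.0223, and 0.0535 without the near-empty libraries.

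Of the other 10 members of the cluster, none was called at any month or in the average. The partner strand of miR-322-3p, miR-322-5p, had counts in 0 of 16 DU and 1 of 16 Pb libraries. miR-503-3p was detected in 12 of 16 libraries of either metal, with a log2 difference of 0.24 in the average (adjusted p = 1). At 12 mo miR-351-5p, a rodent member of the cluster, stood at 1371, 531, 3543 and 2190 CPM in DU and at 422, 387, 327 and 188 CPM in Pb, with no overlap. Its log2 difference was 2.53 ± 1.00 (SE, unadjusted p = 0.0156, adjusted p = 0.668). miR-351-3p did not overlap between the groups either, at 1815 ± 1279 CPM in DU and 469 ± 230 CPM in Pb (SD, n = 4 each). At 1 mo the order was the other way, with miR-351-5p at 1311, 926, 1296 and 852 CPM in DU, all below the 1410, 2748, 3377 and 1951 CPM of Pb.

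**Figure D2:**
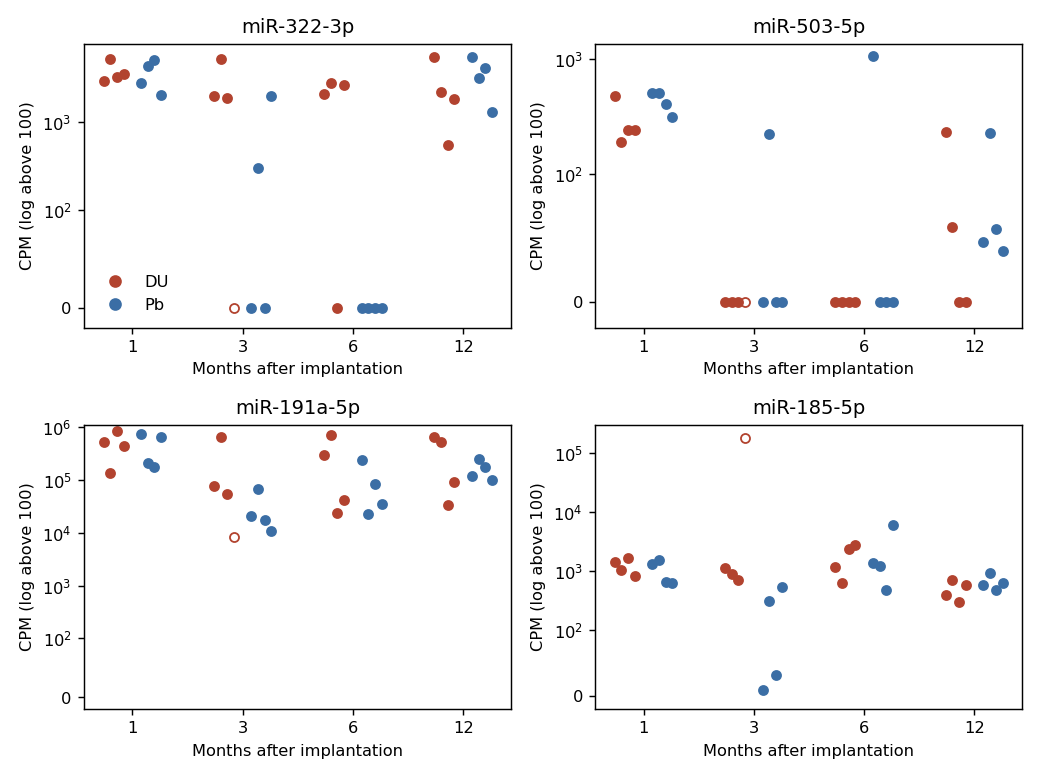
CPM of 4 called miRNAs per library (log scale above 100, linear below) against months after implantation, DU in red and Pb in blue; the open circle is the DU library at 3 mo with 518 counts. miR-322-3p is at 0 in all 4 Pb libraries at 6 mo, miR-503-5p in single Pb libraries at 3 and 6 mo, and the 183400 CPM of miR-185-5p belong to the near-empty library.

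The other 7 calls at 6 mo were miRNAs found in 2 to 4 DU libraries and in no Pb library. miR-96-5p, of the cluster that serves hair cells and other sensory cells, was the one miRNA with counts in 4 of 4 libraries of one metal and 0 of 4 of the other at any month. It stood at 92.3, 85.2, 1265 and 803 CPM in DU and at 0 in all Pb libraries, at least 499-fold higher in the mean of 561 ± 577 CPM (SD, n = 4; adjusted p = 0.0196). Of the 26 libraries of other metals at 6 mo, 20 held miR-96-5p, with a median of 23.9 CPM. At 1 mo it was in 4 DU libraries at 6.49 to 22.4 CPM and in 2 Pb libraries at 114 and 167 CPM, and at 12 mo in 4 DU and 2 Pb libraries.

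miR-126a-5p, the partner strand of the endothelial miRNA miR-126a-3p, stood at 256, 81.0, 577 and 0 CPM in DU and at 0 in all 4 Pb libraries at 6 mo. Its DU mean of 228 ± 256 CPM (SD, n = 4) was at least 203-fold higher (adjusted p = 0.00257). At 3 mo the detection ran the other way, with 0, 158, 0 and 0 CPM in DU and 1185, 358, 31.8 and 417 CPM in Pb, for a log2 difference of -3.31 ± 2.84 (SE, adjusted p = 0.99). At 1 mo 4 DU and 3 Pb libraries held miR-126a-5p, and at 12 mo all 8 did. Its difference changed with month (adjusted p = 0.0078, and 0.00959 without the near-empty libraries). The more abundant strand miR-126a-3p was not called: at 6 mo it stood at 779, 417, 653 and 0 CPM in DU and at 308, 0, 4103 and 1106 CPM in Pb (log2 difference -1.58, adjusted p = 0.536).

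miR-15b-5p, of the miR-15/16 family that restrains the cell cycle and survival factors, stood at 184, 0, 0 and 807 CPM in DU and at 0 in all Pb libraries at 6 mo. It was at least 220.2-fold higher in DU (adjusted p = 0.0138). Its family relative miR-16-5p, with the same seed, was in 4 DU and 2 Pb libraries then and was not called (log2 difference 1.21, adjusted p = 0.705). miR-29b-3p, which restrains collagen messages in fibroblasts, stood at 461, 7.79, 0 and 0 CPM in DU and at 0 in all Pb libraries, at least 20.9-fold higher against a floor of 15 counts, since its counts are multiples of 5 (adjusted p = 0.0168). That call was lost without DU replicate 1, with a log2 difference of 5.35 in place of 10.39 (adjusted p = 0.207), and with counts divided by 5 (adjusted p = 0.0979). Its family members miR-29a-3p and miR-29c-3p, again with the same seed, had log2 differences of 0.73 and 2.08 and were not called (adjusted p = 0.831 and 0.598).

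Besides miR-96-5p, the groups did not overlap at 6 mo in miR-92b-3p and miR-501-3p, so that 3 of 272 miRNAs lay above Pb in every DU library (1.1%) and 0 below. Neither miR-92b-3p (log2 difference 6.27) nor miR-501-3p (1.54) was called. The remaining calls at 6 mo were miR-191a-3p, miR-676 and miR-6216. miR-676 stood at 95.5 and 93.5 CPM in DU replicates 1 and 2, and miR-6216 at 67.8 and 162 CPM in the same 2 libraries, against 0 in DU replicates 3 and 4 and in all 4 Pb libraries (adjusted p = 0.0386 for each). Each of these 2 calls was lost in 5 of the 8 fits that left out 1 library (each of DU replicates 1 and 2 and Pb replicates 1, 2 and 3). Over the 15 alternatives that tested them, each call was lost in 7, with an adjusted p of up to 0.119. The means were at least 42.0-fold and 51.15-fold higher in DU. At 1 mo all 4 DU and all 4 Pb libraries held miR-676, and likewise miR-6216, with adjusted p = 1 for either. Of the 26 libraries of other metals at 6 mo, 24 held miR-676 and 24 held miR-6216.

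**Figure D3:**
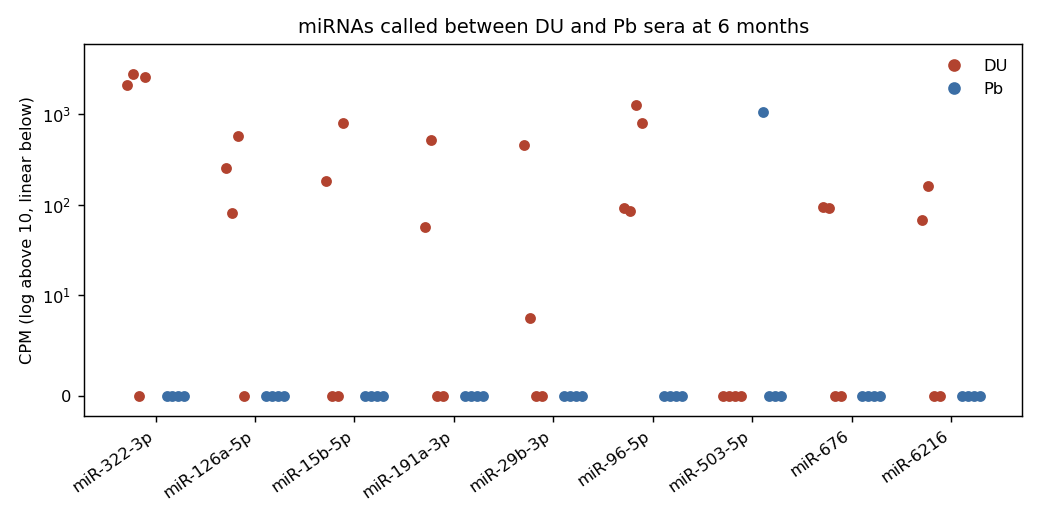
CPM at 6 mo of the 9 called miRNAs (log scale above 10, linear below), DU in red left of Pb in blue, 1 point per library. The 4 Pb points lie at 0 for 8 of the miRNAs; miR-96-5p is the one above 0 in all 4 DU libraries, and miR-503-5p has a single Pb library at 1055 CPM.

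The called miRNAs were held by DU libraries that differed in the number of miRNAs detected. Every Pb library was at 0 for the 8 miRNAs called higher in DU. Most libraries of the other metals held them at 6 mo. Of those 26 libraries, 26 held miR-126a-5p (median 221 CPM) and 25 held miR-15b-5p (median 180 CPM). miR-191a-3p was in 25 of them (median 168 CPM) and miR-29b-3p in 23 (median 325 CPM). miR-191a-3p, miR-29b-3p, miR-676 and miR-6216 were found in DU replicates 1 and 2 alone, the 2 libraries of the 8 that detected 179 and 155 miRNAs. miR-96-5p was highest in DU replicates 3 and 4, miR-126a-5p in replicate 3 and miR-15b-5p in replicate 4, which detected 86 and 77 miRNAs. At 6 mo 115 of the 272 miRNAs tested were detected in more DU than Pb libraries and 16 in more Pb than DU libraries. The TMM factors of that month ran from 0.702 to 1.84 in DU and from 1.25 to 3.80 in Pb. In counts thinned to 70000 per library, DU still held 32.8 more miRNAs on average (exact permutation p = 0.2857). The part of detection in these calls was not tested. Without DU replicate 1 or without DU replicate 2 the calls numbered 5 each, without Pb replicate 1 they numbered 17 and without Pb replicate 4 they numbered 18. In a fit of the 8 DU and Pb libraries alone 0 were called, since 1 of the 9 miRNAs, miR-96-5p, then passed the low-count filter (adjusted p = 0.983).

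miR-191a is the most abundant hairpin of these sera, and its 2 strands were both called higher in DU in the average. The guide strand miR-191a-5p had counts in all 32 libraries. Its log2 difference was 1.43 ± 0.42 over the 4 months (SE, adjusted p = 0.044). At 1 mo it stood at 525400, 138100, 867800 and 441100 CPM in DU, against 738300, 213200, 177700 and 642000 CPM in Pb. At 3 mo DU held 76310, 646800, 55140 and 8262 CPM, the last in the near-empty library, against 20540, 67980, 17630 and 10770 CPM in Pb. The groups overlapped at both months.

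At 6 mo miR-191a-5p stood at 303700, 709500, 23850 and 42830 CPM in DU, against 236500, 22980, 84220 and 35030 CPM in Pb. At 12 mo DU held 647800, 527600, 33640 and 91530 CPM, against 120300, 255200, 177300 and 100400 CPM in Pb. The log2 differences were 0.16, 2.75, 1.51 and 0.99 at 1, 3, 6 and 12 mo, positive at each month, with 0 of the 4 called (adjusted p = 1, 0.439, 0.28 and 0.806). At 3, 6 and 12 mo alike, 2 DU libraries lay above all 4 Pb libraries and the other 2 lay among or below them. The average call was lost in 25 of the 32 fits that left out 1 library and in 30 of 39 alternatives in all. Its adjusted p was 0.0572 without the near-empty libraries and at most 0.328, without DU replicate 2 at 6 mo.

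The partner strand miR-191a-3p was called higher at 6 mo, where DU held 56.6, 522, 0 and 0 CPM and Pb 0 in all 4 libraries, at least 129-fold higher (adjusted p = 0.0138). That call was lost without DU replicate 2 (adjusted p = 0.102). In the average the log2 difference of miR-191a-3p was 3.33 ± 0.95 (SE, adjusted p = 0.0396), with counts in 11 of 16 DU and 9 of 16 Pb libraries. The average call of miR-191a-3p was lost in 21 of the 32 fits that left out 1 library, and without DU replicate 2 at 3 mo the log2 difference was 1.06 (adjusted p = 1). At 1 mo all 8 libraries held it, at 391 ± 118 CPM in DU and 498 ± 148 CPM in Pb (SD, n = 4 each).

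In the average miR-872-3p and miR-330-3p were also called higher in DU, and neither was called at a single month. miR-872-3p was detected in 10 of 16 DU and 4 of 16 Pb libraries, with a log2 difference of 5.17 ± 1.39 (SE, adjusted p = 0.0327). It was at 0 in all Pb libraries at 3 and 6 mo, where 2 DU libraries each held it, at 103 and 387 CPM and at 39.5 and 53.6 CPM. miR-330-3p was detected in 12 of 16 DU and 8 of 16 Pb libraries, with a log2 difference of 4.07 ± 1.13 (SE, adjusted p = 0.0385). It too was at 0 in Pb at 3 and 6 mo, and at 12 mo it was in all 8 libraries at 82.4 ± 23.5 CPM in DU and 86.0 ± 72.3 CPM in Pb (SD, n = 4 each). Without the near-empty libraries the adjusted p was 0.0522 for miR-872-3p, 0.0572 for miR-330-3p and 0.0575 for miR-191a-3p. Leaving out 1 library ended the call of miR-872-3p in 11 of 32 fits and that of miR-330-3p in 18 of 32. The number of calls in the average was 2 or 3 when any 1 of 16 other libraries was left out: Pb replicates 1 to 4 and DU replicates 1 and 3 at 1 mo, Pb replicates 1, 3 and 4 at 3 mo, Pb replicates 2, 3 and 4 and DU replicate 2 at 6 mo, and Pb replicates 1, 2 and 4 at 12 mo.

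Just outside the threshold in the average were miR-6216, miR-185-5p and miR-15b-5p, with log2 differences of 2.89, 1.70 and 2.81 (adjusted p = 0.073 for each). Among miRNAs lower in DU in the average, miR-503-5p was the one called. miR-223-3p of neutrophils and monocytes had a log2 difference of -1.23 (adjusted p = 0.317).

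**Figure D4:**
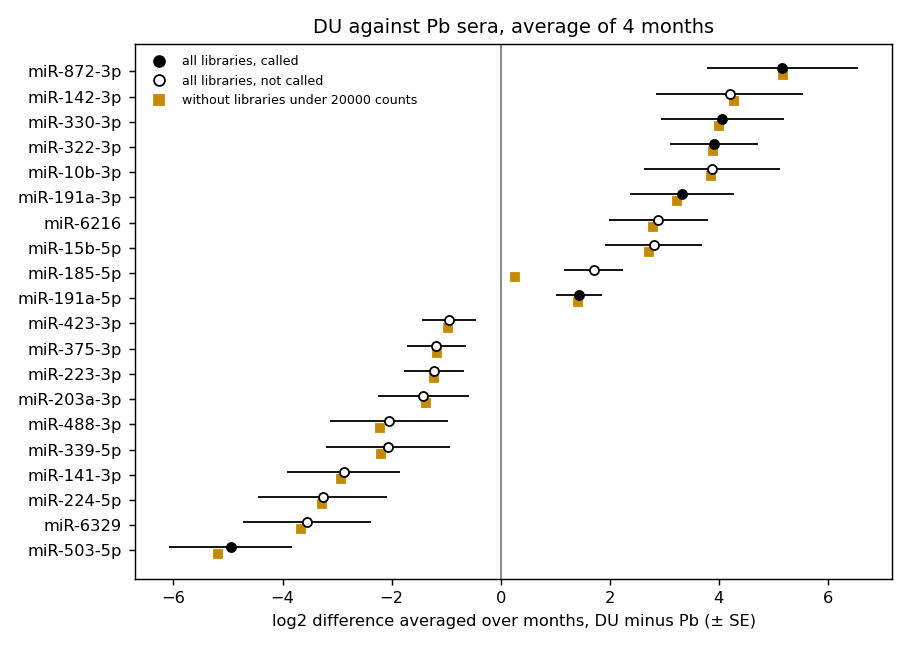
log2 difference DU minus Pb averaged over the 4 months (± SE) for the 10 miRNAs with the smallest p in each direction, filled where called; squares are the same values without the libraries under 20000 counts. The squares lie near the circles except for miR-185-5p, and 6 circles are filled.

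At 3 mo the single call was of miR-185-5p, a miRNA that restrains cholesterol uptake genes in human and mouse cells. DU held 1136, 887, 716 and 183400 CPM, against 8.48, 312, 31.8 and 546 CPM in Pb, with no overlap. The highest value came from the near-empty library, where miR-185-5p took 111 of 518 counts. The log2 difference was 7.66 ± 1.97 (SE, adjusted p = 0.0434), and 1.84 without the near-empty libraries (adjusted p = 1). Leaving out any 1 of the 4 Pb libraries also ended the call. At 1, 6 and 12 mo the log2 differences were 0.25, -0.41 and -0.39 (adjusted p = 1, 1 and 0.931). The change with month had an adjusted p of 0.0077, and 0.967 without the near-empty libraries. After miR-185-5p and miR-191a-5p, the miRNAs with the smallest p at 3 mo were miR-872-3p, miR-19b-3p and miR-224-5p, each at 0 in all libraries of 1 metal and not called.

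The let-7 family, which holds back growth genes such as Ras in differentiated cells, had fitted log2 differences above 0 at 6 mo and below 0 at 12 mo. The groups overlapped in the summed share of the family. At 6 mo it took 7.20%, 2.91%, 31.7% and 34.7% of the counts in DU and 25.0%, 14.2%, 4.61% and 0.912% in Pb. At 12 mo it took 3.48%, 2.75%, 11.9% and 2.85% in DU and 6.875%, 5.23%, 25.7% and 30.0% in Pb. The 9 members were counted in the same libraries, so they are not 9 separate observations. All 9 members passed the filter on low counts at every month, and none was called. At 6 mo 9 of 9 were higher in DU, with a median log2 difference of 1.34, against 0 over all 272 miRNAs tested. Of those 272, 67 had no count in either metal and enter at 0; over the 205 with counts the median was 0.91, with 127 higher and 78 lower in DU. At 12 mo 9 of 9 were lower in DU, with a median of -1.31, against -0.35 over all 224. At 1 mo 6 of 9 were higher (median 0.59, against -0.09 over all), and at 3 mo 4 of 9 (median -0.25, against 0.39 over all). An unadjusted p under 0.05 was reached by 2 members higher in DU at 6 mo (12.5% of all miRNAs tested) and by 4 lower in DU at 12 mo (2.68% of all).

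The directions at 6 and 12 mo held with DESeq2 size factors, without a low-count filter and without the near-empty libraries. In the fit of the DU and Pb libraries alone, 1 member turned to the higher side at 12 mo. Averaged over months 7 of 9 were higher in DU, at a median of 0.18, against 0.11 over all 320. Without the near-empty libraries 4 of 9 were higher.

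let-7g-5p shows the pattern by library. At 1 mo it stood at 4643, 10860, 17040 and 22760 CPM in DU and at 3251, 1837, 3088 and 12170 CPM in Pb. At 6 mo DU held 38500, 7781, 58950 and 165900 CPM, against 55640, 5909, 9247 and 1372 CPM in Pb, so the groups overlapped at both months. At 12 mo the DU values of 14090, 7776, 5085 and 2378 CPM all lay below the 17970, 25730, 24980 and 23940 CPM of Pb. Its log2 differences were 1.44 ± 0.55, -0.78 ± 1.03, 1.91 ± 0.79 and -1.66 ± 0.76 at 1, 3, 6 and 12 mo (± SE, adjusted p = 0.496, 0.99, 0.187 and 0.668). The change with month had an unadjusted p of 0.0308 and an adjusted p of 0.246. let-7f-5p at 12 mo stood at 14680 ± 9239 CPM in DU and 53770 ± 36350 CPM in Pb (SD, n = 4 each), a log2 difference of -1.87 ± 0.67 (SE, adjusted p = 0.668).

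**Figure D5:**
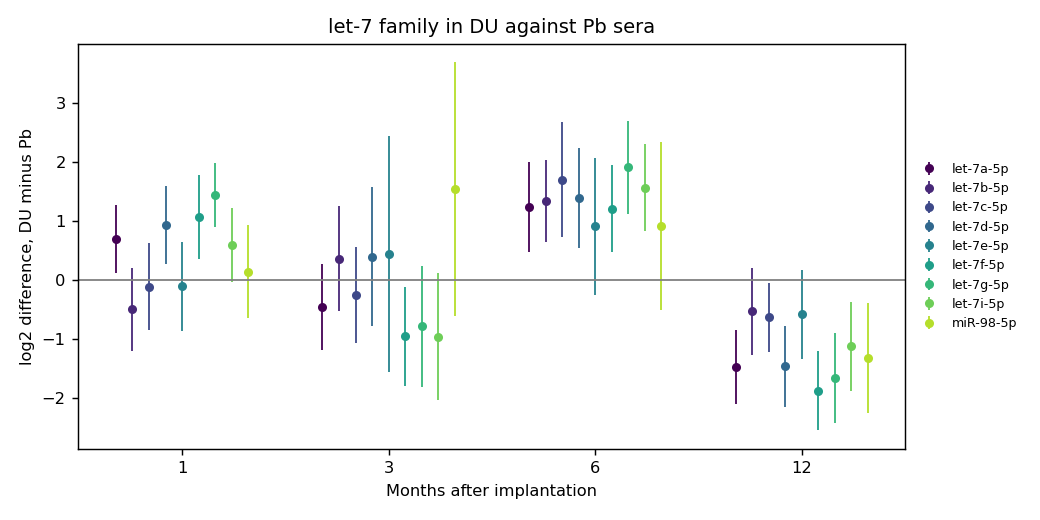
log2 difference DU minus Pb (± SE) of the 9 let-7 family members at each month after implantation, 1 colour per member. All 9 points lie above 0 at 6 mo and below 0 at 12 mo, and they straddle 0 at 1 and 3 mo.

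At 12 mo 8 of 224 miRNAs were lower in every DU than in every Pb library (3.57%) and 2 were higher (0.893%), although none was called. Those below were miR-103-3p, miR-375-3p, let-7g-5p, miR-20a-5p, miR-3559-5p, miR-16-5p, miR-26a-5p and miR-24-3p, and those above were miR-351-5p and miR-351-3p. Overlap was judged in CPM of the main scaling only. Refits with other settings raised the log2 differences at 12 mo by a median of 0.01 (replicate block) to 0.57 (DU and Pb libraries alone). Without the near-empty libraries the median rise was 0.40. The part of scaling in the overlap was not tested. miR-103-3p, which dampens insulin signalling in mouse liver and fat, stood at 104, 185, 73.4 and 97.3 CPM in DU. The Pb libraries held 433, 458, 465 and 450 CPM of it, a narrow range. Its log2 difference was -1.97 ± 0.76 (SE, unadjusted p = 0.0134, adjusted p = 0.668). miR-375-3p of pancreatic islets stood at 328, 424, 762 and 158 CPM in DU and at 831, 770, 1871 and 1530 CPM in Pb (log2 difference -1.58, adjusted p = 0.668).

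On the higher side at 12 mo, miR-10b-5p of the Hox clusters stood at 251800, 76420, 120900 and 16440 CPM in DU and at 51410, 57390, 15530 and 11550 CPM in Pb. The groups overlapped in the lowest DU library, and the log2 difference was 1.78 ± 0.73 (SE, adjusted p = 0.668). Its relative miR-10a-5p had a log2 difference of 1.74 there (adjusted p = 0.686). miR-450a-5p of the X-linked cluster was in 3 DU libraries, at 21.7, 10.5 and 73.4 CPM, and in no Pb library, at least 19.7-fold higher in the DU mean (adjusted p = 0.668). miR-483-5p, from an intron of the growth factor gene Igf2, was in 2 DU libraries at 38.5 and 55.1 CPM and in no Pb library (adjusted p = 0.668). DESeq2 called it, and it was the 1 call of that tool at 12 mo.

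At 1 mo the groups did not overlap in 4 of 270 miRNAs. miR-23a-3p and miR-21-5p, a miRNA of inflamed and scarring tissue, lay above Pb in every DU library (0.741% of those tested). miR-351-5p and miR-30d-5p lay below it (0.741%). miR-21-5p stood at 2085, 1894, 3599 and 2946 CPM in DU and at 1845, 1316, 1646 and 1455 CPM in Pb (log2 difference 0.75, adjusted p = 1). miR-423-5p stood at 17080, 7097, 10530 and 5748 CPM in DU and at 21410, 52870, 16030 and 10260 CPM in Pb, overlapping, with a log2 difference of -1.31 ± 0.52 (SE, unadjusted p = 0.0164, adjusted p = 0.496). miR-203b-3p was in no DU library and in 3 Pb libraries, at 17.2, 11.2 and 101 CPM, at least 49.5-fold lower in DU (adjusted p = 0.496). The neuronal miRNA miR-124-3p was in no DU library and in 2 Pb libraries, at 54.7 and 75.4 CPM, at least 16.6-fold lower in DU against a floor of 9 counts, since its counts are multiples of 3 (adjusted p = 0.496). At 3 and 6 mo miR-124-3p was at 0 in all 16 libraries of the 2 metals.

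Of 14 lists of tissue and pathway miRNAs, 118 names of which 111 are in the table, 9 had no member called at any month or in the average. They were muscle, liver, kidney and the miR-30 family, nervous system, leukocyte, inflammation, p53 and DNA damage, hypoxia and oxidative stress, and let-7. At 6 mo the red cell list had 1 of 8 tested members called (miR-15b-5p) and the platelet and endothelium list 2 of 7 (miR-126a-5p and miR-191a-3p), against 3.31% of all miRNAs. miR-29b-3p was the 1 call of both the fibrosis list (of 8 tested) and the cartilage and bone list (of 5 tested), and miR-322-3p and miR-503-5p were the 2 of the X-linked cluster (of 10 tested). The lists were chosen with earlier results of these data known, and the cluster list is named after its 2 called members. The shares called in these lists therefore do not measure enrichment. In the average the platelet and endothelium list had 7 of 7 members higher in DU at a median log2 difference of 1.43. Over all 320 miRNAs 179 were higher, at a median of 0.11. The averages of miR-126a-5p, miR-191a-3p and miR-199a-5p include a Pb group at 0 throughout at 6 mo, and so depend on the prior count. The list had 5 of 7 higher with DESeq2 size factors and 6 of 7 without the near-empty libraries. Its 2 calls were the 2 strands of miR-191a.

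Muscle miRNAs, from the tissue that holds the pellets, overlapped between the metals and none was called. At 3 mo the summed muscle list took 0.874%, 0.192%, 0.183% and 0% of the counts in DU and 1.23%, 0.149%, 4.17% and 2.84% in Pb. At 6 mo it took 0.705%, 0.111%, 1.47% and 0.413% in DU and 0.147%, 0%, 1.46% and 5.68% in Pb, again overlapping. miR-206-3p, specific to skeletal muscle, stood at 4026, 299, 6213 and 3198 CPM in DU and at 337, 0, 533 and 0 CPM in Pb at 6 mo (log2 difference 3.98, adjusted p = 0.0962). At 3 mo it ran the other way, at 1650, 1049, 0 and 0 CPM in DU and 4267, 221, 22270 and 13140 CPM in Pb (log2 difference -3.70, adjusted p = 0.77). miR-378a-3p, another muscle-rich miRNA, had a log2 difference of -3.44 at 6 mo (adjusted p = 0.0962).

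Liver miRNAs took 4.45% to 27.8% of the counts in DU and 3.74% to 24.5% in Pb at 6 mo, and 3.23% to 38.4% and 14.3% to 31.9% at 12 mo. miR-122-5p at 12 mo stood at 7161, 81520, 60760 and 153300 CPM in DU and at 280600, 388500, 53850 and 54590 CPM in Pb (log2 difference -1.36, adjusted p = 0.686). The red cell list took 0.754% to 9.26% in DU and 0.826% to 3.13% in Pb at 6 mo. Its defining member miR-451-5p had log2 differences of -1.13, -1.42, 1.21 and -0.51 at 1, 3, 6 and 12 mo (adjusted p = 1, 0.99, 0.585 and 0.896). The part of red cell or liver content in the calls was not tested.

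The p53 list, of interest because DU is radioactive, had 0 of 9 tested members called in the average, at a median log2 difference of 0.01, against 0.11 over all. miR-34a-5p, the p53 target best known for its response to DNA damage, had counts in 1 of 16 DU and 1 of 16 Pb libraries. The inflammation list had 0 of 8 called in the average, at a median of -0.30. miR-146a-5p, induced by inflammatory signals, was in all 32 libraries with a log2 difference of 0.37 (adjusted p = 1). The nervous system list, of interest for lead, had 7 of 13 members tested at 1 mo and all 7 were lower in DU, at a median of -5.00, against -0.09 over all. Of the 7, miR-124-3p alone had an unadjusted p under 0.05, a level that 2.22% of all miRNAs tested reached with DU lower. The 4 members at 0 in all DU libraries, miR-124-3p, miR-9a-3p, miR-138-5p and miR-9a-5p, take their fitted values from the prior. At 3 mo both of the 2 members tested were higher in DU (median 0.69), at 6 mo 2 of 7 were higher and 0 lower, and at 12 mo 3 of 3 were lower (median -1.37).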

How the data were processed

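Small RNA libraries were made from rat serum with a Norgen small RNA kit and sequenced on a NextSeq instrument, per the labels' protocols. The authors deposited raw counts per mature miRNA in 1 matrix of 471 miRNAs and 138 libraries; the build was Rnor_6.0 per the submitters' processing notes, and the aligner is not given in the sources used here. Counts were analysed in R 4.3.3 with edgeR 4.0.16 and limma 3.58.1 (filterByExpr with minimum count 10 and minimum total 15, TMM scaling, quasi-likelihood tests, Benjamini-Hochberg adjustment within a comparison, threshold 0.05); DESeq2 1.42.0 was an alternative. Each month was fitted on all libraries of that month with 1 mean per metal, so that all metals share the spread; the average and the change with month were fitted on all 138 libraries. CPM use the TMM factors of the month's fit. The SE of a log2 difference is its absolute value divided by the square root of the F statistic of its test. It was thus derived from the test and not fitted separately. Where a whole group is at 0, this SE depends on the prior count, as the log2 difference does. Single values were compared by two-sided exact permutation tests. The code was tested on simulated data. Named miRNAs were those called and those with the smallest p in each direction. Members and lists were chosen with earlier results of these data known. Floors (3 counts, times the factor common to a miRNA's counts, a choice made after seeing the data) cover counting error only.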

Additional observations from a re-analysis of the deposited data

Results flagged for a closer look

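A value that stood far from the other 3 of its group was found in 4 of the 27 groups of 4 libraries checked. How many groups chance alone would mark is not known for these values. A group with 1 library above 0 and the other 3 at 0 is marked whatever the value of that library. miR-185-5p stood at 183400 CPM in the DU library at 3 mo with 518 counts. miR-503-5p stood at 1055 CPM in 1 Pb library at 6 mo and at 0 in the other 3. miR-191a-3p stood at 522 CPM in DU replicate 2 at 6 mo, and miR-29b-3p at 461.4 CPM in DU replicate 1 at 6 mo.

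The difference between DU and Pb changed between months for 4 miRNAs by the test of the change itself in edgeR. The adjusted p was 0.00149 for miR-322-3p, 0.0077 for miR-185-5p, 0.0078 for miR-126a-5p and 0.0223 for miR-503-5p. Without the near-empty libraries 2 calls were left, miR-322-3p and miR-126a-5p. The calls of miR-185-5p and miR-503-5p were lost, with an adjusted p of 0.967 for miR-185-5p.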

How the results depend on the processing

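Without the 6 libraries of the series under 20000 counts, 1 of them DU, 0 miRNAs were called at 3 mo, 2 in the average and 2 in the change with month. DESeq2 called 6 at 1 mo, 2 at 3 mo, 41 at 6 mo, 1 at 12 mo, 42 in the average and 10 in the change. Without a low-count filter 2 were called at 1 mo, 17 at 6 mo and 10 in the change. With DU and Pb libraries alone 0 were called at 6 mo, 1 at 12 mo, 2 in the average and 2 in the change. DESeq2 size factors gave 13 calls at 6 mo, 8 higher and 5 lower in DU against 8 and 1, and 8 in the change; they shifted the median log2 difference of all miRNAs by 0.26 at 12 mo and -0.30 at 3 mo. Adjusting over the 4 months together left 5 calls at 6 mo. Dividing counts by the whole number that all counts of a miRNA share (30 of 305 miRNAs, miR-322-3p among them; chosen after seeing the data) gave 0 calls at 3 mo and 7 in the change. Replicate numbers were not used to pair the samples. Of 16 same-numbered pairs, 5 correlated above 0.1 and 4 were the best match, which does not exclude a pairing. With the replicate block 0 were called at 3 mo, 6 at 6 mo, 3 in the average and 6 in the change. Leaving out 1 library at a time, the calls ranged over 0 to 1 (1 mo), 0 to 1 (3 mo), 5 to 18 (6 mo), 0 to 0 (12 mo), 2 to 9 (average) and 3 to 16 (change). Signs reversed for miR-125b-1-3p at 3 mo with DESeq2 (0.94), and in the average when 1 library was left out: miR-141-3p ranged from -5.06 to 0.074 and miR-375-3p from -1.28 to 0.73, both highest without Pb replicate 2 at 6 mo, and miR-339-5p from -3.13 to 0.014, highest without Pb replicate 3 at 6 mo. The difference in miRNAs detected at 1 mo was -1.25 at 5 or more counts and -2.28 in thinned counts; at 3 mo it was 14.8 without the near-empty library and 13.8 in thinned counts, and that of the log10 total was 0.70. Where a setting left no count in either metal, an uncalled miRNA got no value; in the fits themselves such miRNAs enter with a log2 difference of 0. The causes were not tested.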
